A study of Homo sapiens with 12 samples.

Results

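Neural cell adhesion molecules of the immunoglobulin (Ig) superfamily were followed in SK-N-SH, a human cell line derived from neuroblastoma, on substrates of 3 stiffnesses. The 8 genes were NCAM1, L1CAM, CHL1, CNTN1, NRCAM, NFASC, ALCAM and THY1, taken by name from the 60664 genes of the deposited count table, and all 8 were found by Ensembl identifier. The groups were SK-N-SH cells on 1 kPa, on 8 kPa and on 30 kPa, with 4 RNA-seq libraries each. Stiffness is given in kilopascals (kPa), and the softest substrate has the lowest value. The labels name no added agent or genetic change, and they do not give the substrate material or the time of culture. They also do not say whether the libraries of a group came from separate cultures, so p-values measure the spread between these libraries, which may be technical. The study's stated question was how substrate stiffness shapes the transcriptome of neuroblastoma cells.

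Ig-type adhesion molecules carry Ig domains on the cell surface and bind either copies of themselves or partner proteins on a neighbouring cell or in the matrix. L1CAM, NRCAM, NFASC and CHL1 form the L1 family, whose cytoplasmic tail binds ankyrin and so ties the contact to the spectrin and actin skeleton. CNTN1 (contactin) and THY1 lack a cytoplasmic tail and are held in the membrane by a lipid anchor, NCAM1 can carry polysialic acid, and ALCAM is also a ligand of the lymphocyte receptor CD6. In the nervous system the group is known for axon outgrowth and bundling, and several members are used as surface antigens of neuroblastoma.

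The part of the L1 family that meets the cytoskeleton is shown because it is the feature by which 4 of the 8 genes are grouped here. It was read from the coding sequence of GENCODE v29 on GRCh38, in the last exon of the transcript used. For L1CAM it lay in exon 29 at chrX:153862735-153862779 on the minus strand, and for NRCAM in exon 33 at chr7:108149982-108150026 on the minus strand. For NFASC it lay in exon 30 at chr1:205016423-205016467 on the plus strand, and for CHL1 in exon 28 at chr3:405610-405654 on the plus strand. The capitals mark the 15 bases that code for the ankyrin-binding motif.
L1CAM: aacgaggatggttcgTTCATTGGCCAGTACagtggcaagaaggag
NRCAM: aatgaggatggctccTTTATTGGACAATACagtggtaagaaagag
NFASC: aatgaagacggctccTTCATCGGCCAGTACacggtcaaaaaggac
CHL1: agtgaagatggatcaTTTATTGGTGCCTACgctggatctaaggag
L1CAM and NRCAM shared 37 of these 45 bases, and L1CAM and NFASC shared 34. CHL1 shared 29 with L1CAM, 30 with NRCAM and 27 with NFASC.

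Library totals were 14317437 to 15896607 counts at 1 kPa, 14951116 to 25349320 at 8 kPa and 23896536 to 27820973 at 30 kPa. The 4 libraries at 1 kPa and 8 kPa replicate 1 made up 5 shallow libraries, and the other 7 were deep. Depth and stiffness therefore cannot be told apart between 30 and 1 kPa. They also go together in large part between 8 and 1 kPa, since 8 kPa replicate 1 is the only shallow library at 8 kPa. Where the depth class (shallow or deep) is a term in a fit below, its effect comes from 8 kPa replicate 1 against replicates 2 to 4 alone. The values of that fit against 1 kPa therefore lean on that 1 library. No 2 of the 12 libraries agreed within sampling noise. The closest were 8 kPa replicates 1 and 3, with a chi-square per gene (near 1 for sampling noise alone) of 2.62. The next pair, 30 kPa replicates 3 and 4, had 5.97. After a filter on low counts 17960 genes were tested, and 7 of the 8 adhesion genes passed it. CHL1 did not pass, with 15 counts over all 12 libraries.

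Of the 7 genes tested, CNTN1 was the only one called, at 8 kPa against 1 kPa and at 30 kPa against 1 kPa. It was 1.41-fold higher on 8 kPa than on 1 kPa and 1.68-fold higher on 30 kPa than on 1 kPa. NCAM1, L1CAM and NRCAM had positive fold changes in both of these comparisons that did not pass the threshold. The log2 fold changes of ALCAM and NFASC lay between -0.12 and 0.17 in the 3 comparisons of stiffnesses, and THY1 was higher in every 30 kPa library than in every 8 kPa library without passing the test.

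Levels between genes are compared as CPM (counts relative to the scaled library total) per kilobase of exon. NRCAM had the highest mean over the 12 libraries at 55.5 CPM per kilobase, with a range of 33.6 to 72.8. ALCAM followed at 46.5 CPM per kilobase, with a range of 39.9 to 52.5 that lay wholly inside that of NRCAM. THY1 had 18.8 CPM per kilobase (13.0 to 23.4) and NCAM1 11.1 (8.45 to 13.2), so these neighbours met only at the edge of their ranges. L1CAM at 7.22 CPM per kilobase (4.11 to 9.29) and CNTN1 at 7.06 (4.04 to 9.87) overlapped throughout. NFASC was far lower at 0.379 CPM per kilobase (0.283 to 0.439), and CHL1 was lowest at 0.0051 (0 to 0.016). Among the 17960 tested genes these means were above those of 97.1% of genes for NRCAM, 96.3% for ALCAM, 66.1% for CNTN1 and 11.1% for NFASC. With the length of the longest protein-coding transcript in place of all exons, ALCAM at 70.9 CPM per kilobase lay above NRCAM at 68.0, and the order of the other genes was the same.

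**Figure D1:**
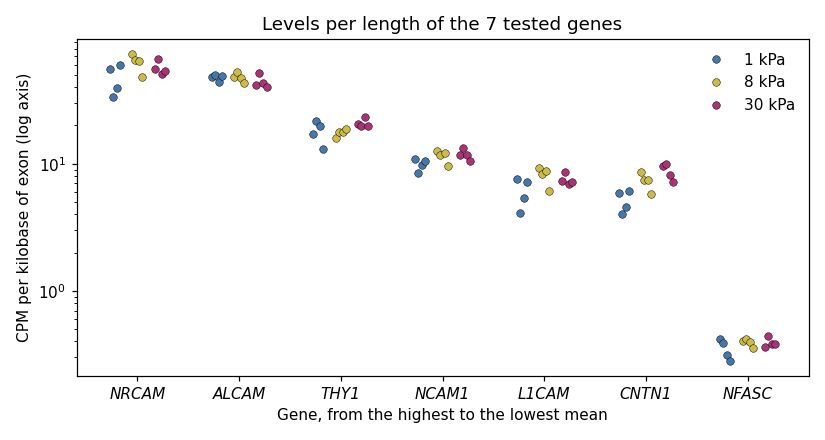
CPM per kilobase of exon (log axis) of the 7 tested genes, one point per library, coloured by stiffness. NRCAM and ALCAM overlap at the top, L1CAM and CNTN1 overlap in the middle, and NFASC lies below all others between 0.283 and 0.439.

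CNTN1 encodes a contactin that acts as a partner of L1-family proteins and of the CNTNAP proteins at axonal contacts. The gene lies on chromosome 12 at chr12:40692442-41072418, on the plus strand (GRCh38). It had 44.4, 30.3, 34.1 and 45.9 CPM at 1 kPa (replicates 1 to 4), 65.0, 55.3, 55.3 and 43.6 CPM at 8 kPa, and 71.3, 73.9, 61.5 and 53.9 CPM at 30 kPa. All 30 kPa libraries were above all 1 kPa libraries, whereas 8 kPa replicate 4 lay below 2 of the 1 kPa libraries. Mean levels and their SD (n = 4 per stiffness) were 38.7 ± 7.67 CPM at 1 kPa, 54.8 ± 8.73 CPM at 8 kPa and 65.2 ± 9.20 CPM at 30 kPa.

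Against 1 kPa, the log2 fold change of CNTN1 was 0.50 at 8 kPa (SE 0.144, adjusted p = 0.0365) and 0.75 at 30 kPa (SE 0.144, adjusted p = 0.0176). These comparisons share the 1 kPa libraries, and the one between 30 and 8 kPa shares libraries with both. Against 8 kPa, the value at 30 kPa was 0.25 (SE 0.139, adjusted p = 0.351). Between 8 and 1 kPa the threshold was passed by 13.8% of all tested genes, with 8.17% higher and 5.6% lower, so 1 call among 7 genes is near that background. Between 30 and 1 kPa it was passed by 2.43% of tested genes, with 1.1% higher and 1.33% lower.

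The call at 8 kPa did not hold in fits that left out 1 of 5 libraries. The adjusted p was 0.103 and 0.1003 when replicate 2 or 3 at 1 kPa was left out, and 0.117, 0.0651 and 0.0951 when replicate 1, 2 or 3 at 8 kPa was. It was 0.0678 when only the 8 and 1 kPa groups were fitted. The call at 30 kPa did not hold when replicate 3 at 1 kPa (adjusted p = 0.0596) or replicate 3 at 30 kPa (adjusted p = 0.0601) was left out. With the depth class as a term the fold changes were 0.75 at 8 kPa (adjusted p = 0.0788) and 1.09 at 30 kPa (adjusted p = 0.444). The depth term is estimated from 8 kPa replicate 1 against the other 8 kPa libraries, so these values lean on 1 library. Within the shallow class, 8 kPa replicate 1 at 65.0 CPM was above all 4 of the 1 kPa libraries. Within the deep class the 30 kPa libraries at 53.9 to 73.9 CPM overlapped the 8 kPa libraries at 43.6 to 55.3 CPM.

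L1CAM, the founding member of its family and a driver of neurite outgrowth, lies at chrX:153861514-153886174 on the minus strand. It had 54.8, 29.9, 39.3 and 52.2 CPM at 1 kPa, 67.5, 60.7, 63.8 and 44.2 CPM at 8 kPa, and 52.9, 62.2, 50.8 and 52.0 CPM at 30 kPa. Replicates 1 to 3 at 8 kPa were above every 1 kPa library, while replicate 4 at 8 kPa fell among them. The 30 kPa libraries overlapped both other groups. The log2 fold change was 0.42 at 8 kPa against 1 kPa (95% interval 0.05 to 0.79, adjusted p = 0.0985), -0.11 at 30 kPa against 8 kPa (-0.48 to 0.25, adjusted p = 0.741) and 0.31 at 30 kPa against 1 kPa (-0.06 to 0.68, adjusted p = 0.336).

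NRCAM, which gathers with NFASC at nodes of Ranvier, lies at chr7:108147623-108456717 on the minus strand. It had 454, 275, 322 and 491 CPM at 1 kPa, 596, 538, 531 and 392 CPM at 8 kPa, and 452, 545, 417 and 438 CPM at 30 kPa. As with L1CAM, replicates 1 to 3 at 8 kPa were above every 1 kPa library and replicate 4 was not. The log2 fold change was 0.42 at 8 kPa against 1 kPa (95% interval 0.04 to 0.80, adjusted p = 0.109), -0.15 at 30 kPa against 8 kPa (-0.53 to 0.23, adjusted p = 0.667) and 0.26 at 30 kPa against 1 kPa (-0.12 to 0.64, adjusted p = 0.421).

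NFASC, neurofascin, which organises axon initial segments and nodes, lies at chr1:204828651-205022822 on the plus strand. It had 8.94, 8.25, 6.70 and 6.01 CPM at 1 kPa, 8.53, 8.93, 8.48 and 7.53 CPM at 8 kPa, and 7.72, 9.34, 8.06 and 8.15 CPM at 30 kPa. The 3 groups overlapped, and the lowest libraries were 1 kPa replicates 3 and 4. Its log2 fold changes were 0.17 at 8 kPa against 1 kPa (95% interval -0.11 to 0.44, adjusted p = 0.377) and 0.16 at 30 kPa against 1 kPa (-0.12 to 0.43, adjusted p = 0.524). CHL1, the close homologue of L1, lies at chr3:196596-409417 on the plus strand. Its raw counts were 0, 0, 2 and 3 in the 1 kPa libraries, 0, 1, 2 and 4 in the 8 kPa libraries, and 0, 1, 1 and 1 in the 30 kPa libraries. At this depth no difference in CHL1 was detectable.

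NCAM1, which binds copies of itself on neighbouring cells and signals through FGF receptors and FYN, lies at chr11:112961247-113278436 on the plus strand. It had 140.0, 107.6, 124 and 133 CPM at 1 kPa, 162, 149.8, 155 and 122 CPM at 8 kPa, and 149, 169, 148 and 135 CPM at 30 kPa. Replicate 2 at 1 kPa was the lowest library and replicate 2 at 30 kPa the highest, and the groups overlapped. The log2 fold change was 0.22 at 8 kPa against 1 kPa (95% interval 0.002 to 0.44, adjusted p = 0.137), 0.03 at 30 kPa against 8 kPa (-0.19 to 0.25, adjusted p = 0.898) and 0.25 at 30 kPa against 1 kPa (0.03 to 0.47, adjusted p = 0.176).

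ALCAM, also called CD166, lies at chr3:105366909-105576900 on the plus strand. It had 347, 358, 314 and 355 CPM at 1 kPa, 346, 377, 336 and 308 CPM at 8 kPa, and 297, 369, 309 and 287 CPM at 30 kPa. It varied least of the 7 tested genes, with a highest library 1.31 times the lowest. Its log2 fold change was -0.01 at 8 kPa against 1 kPa (95% interval -0.20 to 0.18, adjusted p = 0.969), a sign that turned with scaling by library size alone. The value was -0.12 at 30 kPa against 1 kPa (-0.31 to 0.07, adjusted p = 0.466).

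THY1, a small lipid-anchored protein of neurons, fibroblasts and mesenchymal cells, lies at chr11:119417378-119424985 on the minus strand. It had 101, 128, 118 and 77.0 CPM at 1 kPa, 95.2, 104, 105 and 112 CPM at 8 kPa, and 122, 117, 139 and 117 CPM at 30 kPa. The lowest 30 kPa library stood above the highest 8 kPa library, and the 1 kPa libraries spanned nearly the whole range. The log2 fold change was 0.25 at 30 kPa against 8 kPa (95% interval -0.02 to 0.52, adjusted p = 0.284), -0.03 at 8 kPa against 1 kPa (-0.30 to 0.24, adjusted p = 0.902) and 0.22 at 30 kPa against 1 kPa (-0.05 to 0.49, adjusted p = 0.336).

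**Figure D2:**
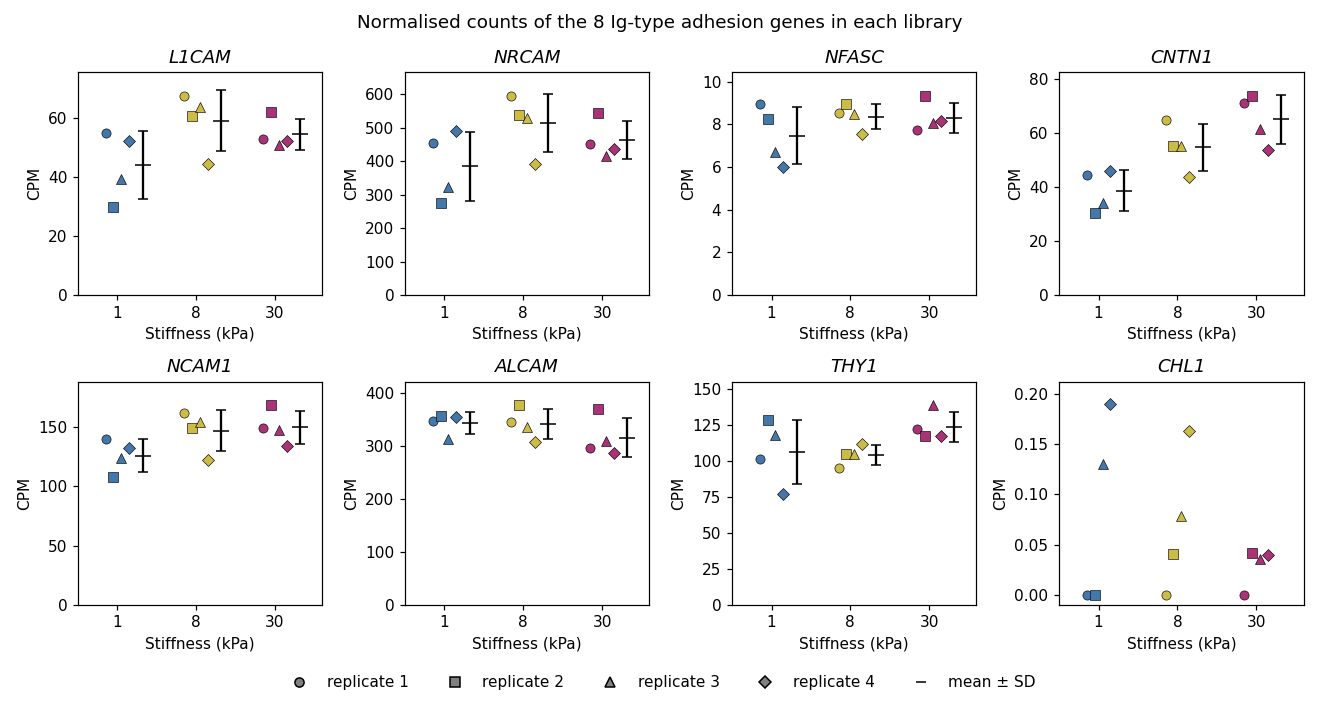
Normalised counts (CPM, y axis from 0 except for CHL1) of the 8 genes by stiffness in kPa, one symbol per library with its shape giving the replicate; bars show the mean ± SD of 4 libraries and are left out for CHL1, which had 0 to 4 counts a library. The 30 kPa libraries of CNTN1 lie above all its 1 kPa libraries, and 1 kPa replicate 2 and 8 kPa replicate 4 are the lowest of their groups for L1CAM, NRCAM, CNTN1 and NCAM1.

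Between 8 and 1 kPa the median log2 fold change of the 7 genes was 0.22, beside -0.01 over all tested genes, with 5 of the 7 positive and an unadjusted p under 0.05 for 4, against 31.2% of all tested genes. Non-overlap between the groups was seen for 0 of the 7, against 16.8% of all tested genes. Between 30 and 1 kPa the median was 0.25, beside 0.00 over all tested genes, with 6 of the 7 positive and an unadjusted p under 0.05 for 2, against 18.9% of all tested genes. CNTN1 was the 1 of 7 without overlap in the higher direction, against 5.33% of all tested genes. Values that did not pass the threshold also moved with single choices, and none of those that follow passed. With the depth class as a term the log2 fold changes at 30 kPa against 1 kPa were 0.57 for L1CAM (adjusted p = 0.550), 0.56 for NRCAM (0.559), 0.44 for NCAM1 (0.472) and 0.05 for THY1 (0.952), and those at 8 kPa against 1 kPa were 0.63 for NRCAM and 0.36 for NCAM1. Without 1 kPa replicate 2 the values at 30 kPa were 0.16 for L1CAM and 0.13 for NRCAM, and without 1 kPa replicate 4 they were 0.09 for THY1, 0.06 for NFASC and 0.40 for NRCAM. Without 30 kPa replicate 2 they were 0.18 for NRCAM and 0.10 for NFASC.

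Between 30 and 8 kPa, edgeR called 0 of the 7 genes and 0% of all tested genes, with an unadjusted p under 0.05 for 0 of the 7 and for 3218 of all genes (17.9%). DESeq2 also called 0 of the 7, and 430 of all genes. The median over the 7 was -0.01, beside 0.00 over all tested genes. THY1 was the 1 of 7 whose 30 kPa libraries were all higher, against 4.79% of all tested genes. When 8 kPa was set against the average of the log2 levels at 1 and 30 kPa, edgeR and DESeq2 called 0 of the 7 while edgeR called 7.08% of all tested genes. An unadjusted p under 0.05 was found there for 0 of the 7, against 27.5% of all tested genes. The highest values in that comparison were 0.28 for NRCAM (adjusted p = 0.216) and 0.27 for L1CAM (adjusted p = 0.226).

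**Figure D3:**
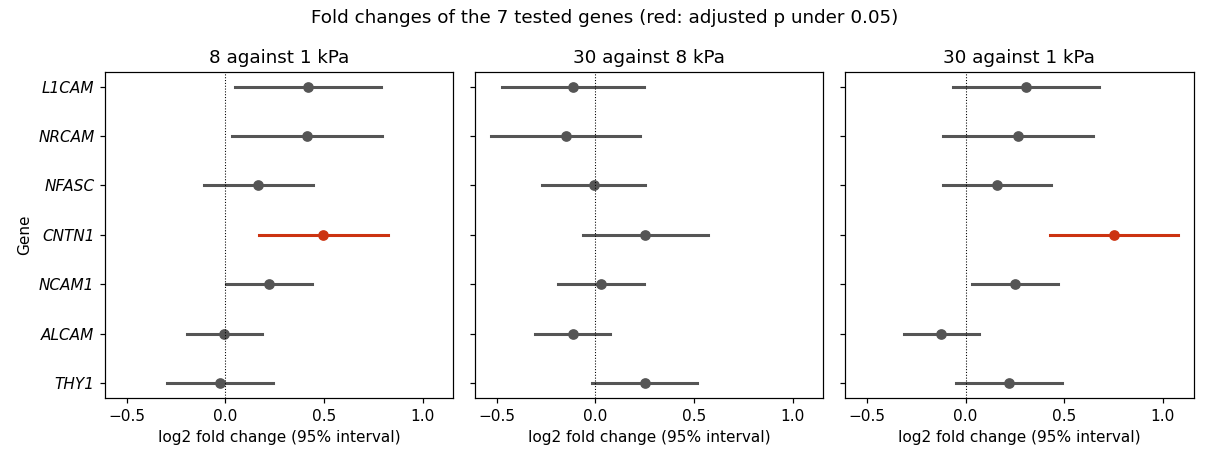
Log2 fold changes (x axis) of the 7 tested genes in the 3 comparisons between stiffnesses, with 95% intervals; red marks an adjusted p under 0.05. CNTN1 is the gene marked, at 0.50 for 8 against 1 kPa and 0.75 for 30 against 1 kPa.

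NCAM1, L1CAM, CNTN1 and NRCAM varied together from library to library, a grouping made after the values were seen. Of the 21 pairs among the 7 genes, 6 had a Pearson correlation of log2 CPM over the 12 libraries with an adjusted permutation p under 0.05, and these were the pairs among those 4 genes. Their Pearson r ran from 0.806 to 0.980 (adjusted p from 0.00021 to 0.00532) and their Spearman rho from 0.706 to 0.958 (adjusted p from 0.00021 to 0.0459), with both families adjusted over the 21 pairs. The closest pair was L1CAM and NRCAM at r = 0.980.

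With the group means removed, r within the 6 pairs was 0.885 to 0.972. Over the 7 deep libraries it was 0.451 to 0.972, and the 5 shallow libraries were too few for a value. Without the 2 libraries farthest from the median, r was 0.436 to 0.950. For CNTN1 the 12-library r of 0.806 with NRCAM and of 0.827 with L1CAM became 0.436 and 0.511 without 1 kPa replicates 2 and 3. With the group means removed, CNTN1 had an r of 0.925 with NRCAM and of 0.899 with L1CAM over all 12 libraries. The reason for the drop without those 2 libraries was not tested. All 12 libraries share 1 line and differ in depth, and 6.66% of the 11674 genes searched also had an r above 0.8 with NRCAM.

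THY1 had no correlation with these 4 genes over the 12 libraries that passed the threshold, and its values with the group means removed were not tested. Its r with those 4 genes was -0.516 to -0.0004 over the 12 libraries and -0.847 to -0.539 with the group means removed, and the pooled values had adjusted permutation p from 0.265 to 0.999. Over the 7 deep libraries r was -0.537 to 0.403 and without the 2 farthest libraries -0.439 to 0.470, positive in both for CNTN1 and NCAM1. In 1 kPa replicate 2 and in 8 kPa replicate 4 the 4 genes were at their group's lowest level and THY1 at its group's highest. The 4 genes were split at 30 kPa. L1CAM and NRCAM were lowest there in replicate 3, where THY1 was highest. NCAM1 and CNTN1 were lowest in replicate 4, where THY1 was lowest too, level with replicate 2.

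Markers of the adrenergic (neuron-like) and mesenchymal states of neuroblastoma cells were present together, and SK-N-SH is known to hold both kinds of cell. Summed over 14 adrenergic markers the level was 867 to 1465 CPM at 1 kPa, 1260 to 1920 CPM at 8 kPa and 1366 to 1604 CPM at 30 kPa. By library the sum was 1381, 867, 1108 and 1465 CPM at 1 kPa, 1920, 1615, 1741 and 1260 CPM at 8 kPa, and 1554, 1604, 1498 and 1366 CPM at 30 kPa. The lowest sums at 1 and at 8 kPa were again those of 1 kPa replicate 2 and 8 kPa replicate 4. Of the 13 adrenergic markers tested, 5 rose at 8 kPa against 1 kPa, beside 8.17% of all tested genes, and 2 rose at 30 kPa against 1 kPa, beside 1.1%. TH, with 0 or 1 count a library, was not tested. With the depth class as a term 0 of these markers rose in either comparison. With a library left out 0 to 8 rose at 8 kPa, with 0 when 1 kPa replicate 3 or 8 kPa replicate 1 or 3 was dropped, and 0 to 4 rose at 30 kPa, with 0 when any library other than 1 kPa replicate 4 or 8 kPa replicate 1 or 4 was.

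The sum over 12 mesenchymal markers was 6585 to 7412 CPM at 1 kPa, 6054 to 7208 CPM at 8 kPa and 6104 to 6777 CPM at 30 kPa, with 1 kPa replicate 2 and 8 kPa replicate 4 the highest of their groups. Of these 12, 0 were called by edgeR at 8 kPa against 1 kPa (unadjusted p under 0.05 for 4). With a library left out 0 to 3 fell there, with 0 unless 1 kPa replicate 4 or 8 kPa replicate 4 was dropped. At 30 kPa against 1 kPa 3 fell, beside 1.33% of all tested genes. None of these 3 passed with the depth class as a term. The number at 30 kPa was 0 to 3 with a library left out, with 0 without 30 kPa replicate 3. The 7 fibroblast markers summed to 1446 to 1916 CPM at 1 kPa, 1358 to 1681 CPM at 8 kPa and 1611 to 1800 CPM at 30 kPa. The part of either state in the levels of the adhesion genes was not tested, and in bulk RNA fewer cells of a kind and less RNA per cell cannot be told apart. Summed markers of other lineages were lower than the sums above. Of the epithelial ones, KRT18 averaged 12.0 CPM per kilobase, beside 11.1 for NCAM1, and KRT8 averaged 2.17. The 6 epithelial markers summed to 48.9 to 74.9 CPM over the 12 libraries, the 5 endothelial ones to 2.70 to 10.3 CPM, the 6 Schwann and melanocyte ones to 4.37 to 6.17 CPM and the 5 immune ones to 0.235 to 0.861 CPM. SOX10 had at most 2 counts a library. Of the markers of these 4 lineages that were tested, 1 was called, a Schwann marker (S100B) that rose at 8 kPa against 1 kPa.

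**Figure D4:**
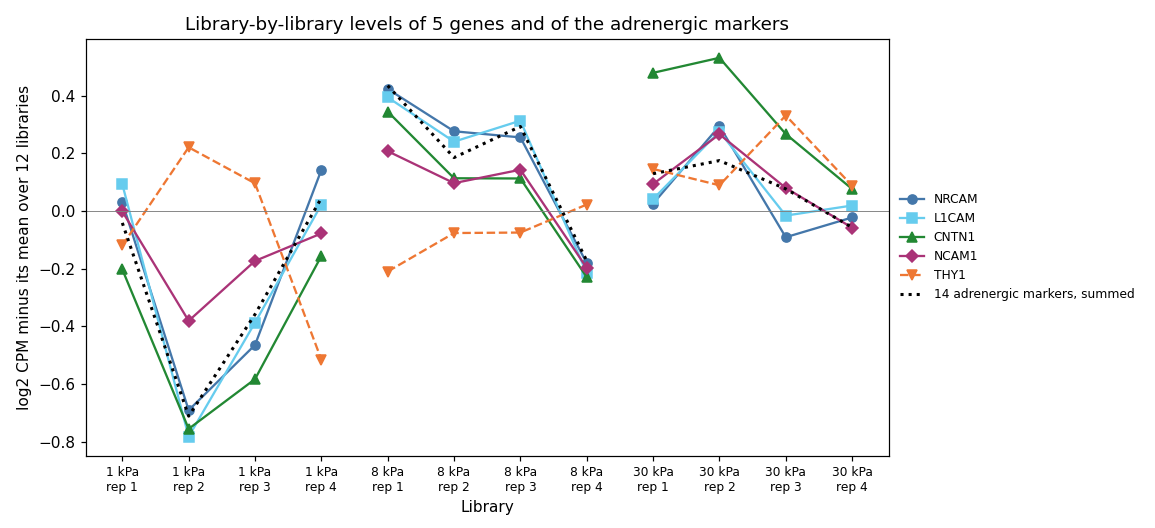
Log2 CPM of NRCAM, L1CAM, CNTN1, NCAM1 and THY1 and of the summed 14 adrenergic markers, each minus its mean over the 12 libraries (y axis), by library (x axis, 4 replicates at 1, 8 and 30 kPa). The 4 adhesion genes and the markers are lowest of their group in 1 kPa replicate 2 and 8 kPa replicate 4, where THY1 (dashed) is highest of its group.

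For 3 of the genes that varied together, the 250 bases before the first listed RefSeq start on GRCh38.p14 are shown. All 3 stretches lie inside the gene as placed in GENCODE v29. That of NRCAM lies just downstream of the gene's first base (chr7:108456717). Those of CNTN1 and L1CAM lie much farther downstream of it (chr12:40692442 for CNTN1 and chrX:153886174 for L1CAM). The 3 stretches are therefore not at like sites, which limits a comparison of their bases. RefSeq entries were matched for 6 of the 8 genes, and several genes have more than 1 listed start; counts per gene do not tell which start was used. Capitals mark GGGCGG, the GC box, searched on both strands.
CNTN1, chr12:40827934-40828183, plus strand: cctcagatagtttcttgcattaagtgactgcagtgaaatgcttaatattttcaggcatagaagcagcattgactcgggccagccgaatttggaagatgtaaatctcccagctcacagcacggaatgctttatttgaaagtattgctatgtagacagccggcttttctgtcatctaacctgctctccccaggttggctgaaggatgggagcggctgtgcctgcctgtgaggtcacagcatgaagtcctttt
NRCAM, chr7:108456437-108456686, minus strand: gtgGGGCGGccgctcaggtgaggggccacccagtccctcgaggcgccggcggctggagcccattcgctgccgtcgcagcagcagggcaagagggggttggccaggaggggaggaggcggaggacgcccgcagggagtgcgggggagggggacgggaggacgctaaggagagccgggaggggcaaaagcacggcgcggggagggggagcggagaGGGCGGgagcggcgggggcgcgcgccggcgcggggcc
L1CAM, chrX:153875945-153876194, minus strand: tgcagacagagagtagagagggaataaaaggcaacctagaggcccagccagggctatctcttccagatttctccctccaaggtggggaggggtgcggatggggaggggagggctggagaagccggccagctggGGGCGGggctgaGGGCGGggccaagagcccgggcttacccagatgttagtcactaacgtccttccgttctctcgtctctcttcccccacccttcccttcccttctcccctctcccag
At these first listed starts NRCAM and L1CAM each held 2 GC boxes and CNTN1 held 0. Of the 35116 promoters of the same length 42.6% held at least 1. The GC content of the stretches shown was 78.4% for NRCAM, 62.4% for L1CAM and 47.2% for CNTN1, beside a median of 58.0% over all promoters. TATAAA was in 0 of the 3 and in 10.7% of all promoters. GGAATG, the core bound by TEAD factors, occurred once in the CNTN1 stretch and in 11.9% of all promoters. The counts depend on the start taken. Starts 2 and 3 of NRCAM held 0 GC boxes, with a GC content of 42.4% and 33.2%. Start 2 of CNTN1 held 0 GC boxes and 0 GGAATG. Start 2 of L1CAM, whose stretch overlaps the one shown, held 2 GC boxes.

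The genes whose levels were most like those of each adhesion gene over the 12 libraries were found among 11673 other genes with a symbol and a mean of at least 5 CPM. For NRCAM these were ITGA9 (r = 0.993), KIF5C (0.989) and NSG2 (0.985), and for L1CAM they were SCG3 (0.988), NSG2 (0.985) and MAPK8IP2 (0.984). Among the genes most like CNTN1 were PROKR2 (0.970) and RPH3A (0.963), and NCAM1 was most like SLIT3 (0.976), CADM2 (0.975) and CLVS2 (0.971). THY1 was most like SFRP1 (0.975), DPM2 (0.958) and PDE4DIP (0.950). ALCAM, with TFPI2 (0.915), SARAF (0.912) and KLF3 (0.912), and NFASC, with GPR153 (0.843), KIAA2013 (0.816) and PXDN (0.815), had weaker best matches.

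Other Ig-type adhesion molecules were measured for 34 of the 39 listed. At 8 kPa against 1 kPa 1 rose and 1 fell, beside 8.17% and 5.6% of all tested genes, with a list median log2 fold change of -0.07. CADM3, a synaptic adhesion molecule, rose by 0.53 (adjusted p = 0.0296), at 4.71 to 6.84 CPM on 8 kPa against 3.66 to 4.87 CPM on 1 kPa. That call did not survive leaving out any of replicates 1 to 3 at either stiffness (adjusted p up to 0.0937). PTPRM, a receptor phosphatase that binds copies of itself, fell by 0.30 (adjusted p = 0.0237), and did not pass when replicate 2 at 1 kPa or replicate 1 or 3 at 8 kPa was dropped (adjusted p up to 0.0797).

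At 30 kPa against 1 kPa, 0 rose and 2 fell in this list, beside 1.1% and 1.33% of all tested genes, and the list median was 0.06. The contactin CNTN5 fell by 0.76 (adjusted p = 0.0344), at 2.33 to 4.55 CPM on 30 kPa against 5.51 to 6.01 CPM on 1 kPa, and KIRREL3, an adhesion molecule of synapses, fell by 1.01 (adjusted p = 0.0281), at 1.04 to 1.21 CPM against 1.79 to 2.66 CPM. CNTN5 thus differed in sign from CNTN1 in the same comparison. CNTN5 did not pass when replicate 1 or 3 at 1 kPa, replicate 3 at 8 kPa or replicate 2, 3 or 4 at 30 kPa was dropped (adjusted p up to 0.0967). KIRREL3 did not pass when replicate 1, 3 or 4 at 1 kPa or any library at 30 kPa was dropped (adjusted p up to 0.103). The list's highest levels per length were those of BSG (basigin) at 101 and KIRREL1 at 51.6 CPM per kilobase.

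All 16 listed linkers to the skeleton, ankyrins, spectrins and ERM proteins among them, were measured, and KIF4A was the 1 that rose. Of all tested genes 8.17% rose at 8 kPa and 1.1% at 30 kPa, both against 1 kPa. KIF4A is a motor protein of dividing cells that has also been tied to the transport of L1. It had 34.4 to 44.6 CPM on 8 kPa and 32.8 to 45.3 CPM on 30 kPa, against 23.1 to 30.1 CPM on 1 kPa, a log2 fold change of 0.49 on 8 kPa (adjusted p = 0.0148) and of 0.53 on 30 kPa (adjusted p = 0.0249). The call on 8 kPa survived the loss of any 1 of the 12 libraries, and that on 30 kPa did not survive the loss of replicate 1 or 3 at 1 kPa or of replicate 2, 3 or 4 at 30 kPa (adjusted p up to 0.0933). The ankyrins ANK2 and ANK3, which hold L1-family tails, averaged 4.99 and 1.59 CPM per kilobase and had adjusted p of 0.200 and 0.601 at 8 kPa against 1 kPa. The highest levels per length were those of MSN (moesin) at 45.7 and SDCBP (syntenin) at 40.5 CPM per kilobase.

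Of 23 extracellular and membrane partners 19 were measured. At 8 kPa against 1 kPa 1 rose and 1 fell, beside 8.17% and 5.6% of all tested genes. At 30 kPa against 1 kPa 1 rose, beside 1.1%. CNTNAP5, of the family that pairs with contactins, rose by 0.55 at 8 kPa (adjusted p = 0.0480) and by 0.71 at 30 kPa (adjusted p = 0.0448), both against 1 kPa. It had 2.66 to 3.74 CPM on 8 kPa and 2.94 to 4.51 CPM on 30 kPa, against 1.89 to 2.45 CPM on 1 kPa. The call on 8 kPa did not survive dropping any library at 1 kPa, replicate 1, 2 or 3 at 8 kPa, or replicate 2 or 4 at 30 kPa (adjusted p up to 0.127). That on 30 kPa passed in only 1 such fit, the one without replicate 4 at 8 kPa (adjusted p up to 0.119). CNTNAP1, the usual partner of CNTN1 at axonal contacts, was higher per length at 35.1 CPM per kilobase and had an adjusted p of 0.0624 and 0.575 in the same comparisons. ITGAV, an integrin subunit that binds L1CAM and THY1, fell by 0.22 at 8 kPa against 1 kPa (adjusted p = 0.0216), and did not pass when replicate 2 at 1 kPa or replicate 1 or 3 at 8 kPa was dropped (adjusted p up to 0.0716). The highest levels per length were those of ITGB1 at 302 and the matrix protein TNC at 181 CPM per kilobase.

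The 11 sheddases and polysialic acid enzymes had 0 calls by edgeR in each of the 3 comparisons, beside 13.8% of all tested genes at 8 against 1 kPa. An unadjusted p under 0.05 was found for 2 at 8 against 1 kPa, 1 at 30 against 8 kPa and 1 at 30 against 1 kPa. At 8 kPa against 1 kPa, DESeq2, limma-voom and edgeR with a stricter filter on low counts each called 1 of them, and edgeR called 2 without 1 kPa replicate 4 or 8 kPa replicate 2. DESeq2 called 0 in the other comparisons. ST8SIA2 and ST8SIA4, which add polysialic acid to NCAM1, averaged 1.54 and 1.47 CPM per kilobase, and ADAM10, which cuts L1CAM from the surface, averaged 16.0. The highest levels per length were those of NCSTN (nicastrin) at 102 and MMP14 at 67.6 CPM per kilobase.

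All 19 signalling partners were measured, and at 8 kPa against 1 kPa 4 rose and 1 fell, beside 8.17% and 5.6% of all tested genes. PRKCB, a protein kinase C, rose by 1.03 (adjusted p = 0.0152), at 4.91 to 7.68 CPM on 8 kPa against 1.79 to 4.56 CPM on 1 kPa and did not pass when replicate 3 at 8 kPa was dropped (adjusted p = 0.0563). GAP43, a growth cone protein and kinase C substrate, rose by 0.66 (adjusted p = 0.0243), at 83.0 to 123 CPM on 8 kPa against 45.9 to 97.0 CPM on 1 kPa. It did not pass when replicate 1 or 3 at either stiffness was dropped (adjusted p up to 0.0802). At 30 kPa against 1 kPa the log2 fold change of GAP43 was 0.10 (adjusted p = 0.819).

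MAPK3 and CSK rose by 0.25 (adjusted p = 0.0389) and 0.19 (adjusted p = 0.0465) at 8 kPa against 1 kPa. MAPK3 did not pass when replicate 1, 2 or 3 at 1 or 8 kPa or replicate 1 or 3 at 30 kPa was dropped (adjusted p up to 0.123). CSK passed in only 2 such fits, those without replicate 4 at 8 kPa or replicate 2 at 30 kPa (adjusted p up to 0.156). EGFR, a receptor kinase that L1CAM can engage, fell by 0.35 at 8 kPa (adjusted p = 0.00962) and by 0.36 at 30 kPa (adjusted p = 0.0169), both against 1 kPa. It had 247 to 292 CPM on 8 kPa and 250.3 to 283 CPM on 30 kPa, against 319 to 369 CPM on 1 kPa, with no overlap. Dropping any 1 of the 12 libraries left EGFR past the threshold at 8 kPa, whereas at 30 kPa it did not pass when replicate 1 or 3 at 30 kPa was dropped (adjusted p up to 0.0782). GAP43 at 40.9 and EGFR at 23.1 CPM per kilobase had the highest levels per length.

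At 30 kPa against 8 kPa, 0 genes of these 5 pathway lists were called by edgeR. An unadjusted p under 0.05 was found there for 5 other Ig-type molecules, 1 linker, 0 partners, 1 sheddase or polysialylation gene and 6 signalling partners, and DESeq2 called 1, a signalling partner. With the depth class as a term none of the calls named in these lists held. When only the groups compared were fitted, PTPRM, KIF4A, EGFR and PRKCB still passed at 8 kPa against 1 kPa and KIRREL3, KIF4A and EGFR at 30 kPa against 1 kPa, while CADM3, CNTNAP5, ITGAV, CSK, MAPK3, GAP43 and CNTN5 did not (adjusted p from 0.0561 to 0.0729). For each library, a gene's log2 CPM minus its mean over the 12 libraries was correlated across genes with log2 summed exon length. This correlation was -0.0163 to 0.0873 at 1 kPa, -0.0413 to 0.0386 at 8 kPa and -0.0777 to 0.00756 at 30 kPa. Its part in these results was not tested.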

How the data were processed

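RNA-seq of 12 SK-N-SH libraries was analysed, 4 each at 1, 8 and 30 kPa. HISAT2 alignment to GRCh38 is named in the submitters' processing notes. The authors deposited raw counts per Ensembl gene and library; how reads were counted, with which annotation and strand setting, is not given in the sources used here. Reads of NCAM1, THY1 and L1CAM therefore cannot be told apart from those of antisense partners, of which THY1-AS1 had 398 counts in all beside 28279 for THY1, NCAM1-AS1 had 211 and ENSG00000247416 had 268 beside 35803 for NCAM1, and L1CAM-AS1 had 11 beside 13371 for L1CAM. A read-through gene on the same strand as L1CAM had 0 counts.

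The table held 60664 genes, of which 42028 had a symbol by identifier. Groups and replicate numbers were taken from the sample titles. Counts were tested in R 4.3.3 with edgeR 4.0.16: filterByExpr by group left 17960 genes (99.87% or more of each library's counts), TMM set the scaling, and 1 model with stiffness as its term covered the 12 libraries. Every adjusted p of a gene comes from edgeR's quasi-likelihood F-test with Benjamini-Hochberg adjustment at a threshold of 0.05, unless another tool is named. The adjustment was over all genes tested in the fit, 17960 in the main fit. Fits with fewer libraries repeated the filter, and those fits and the ones with another filter were adjusted over their own genes. The standard error (SE) is the size of the log2 fold change divided by the root of F, and 95% intervals use a t distribution with 9 degrees of freedom. CPM were divided by the summed exon length in GENCODE v29 for levels per kilobase. Correlations between adhesion genes used log2 CPM without a prior count and two-sided permutation tests, adjusted over 21 pairs. The search for the genes most like each adhesion gene used log2 CPM with a prior count of 2 and no test. The steps were tested on simulated data.

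The genes, the pathway and marker lists and the tests were chosen with earlier results of these data known. Named were all 8 genes and, from each pathway list, the called genes of a comparison, or the 5 with the smallest adjusted p where more were called, and the 2 with the highest level per length; other genes were chosen after their values were seen. For each tested gene the 3 genes with the highest correlation were named, of which 1 is not reported here. Alternatives were median-ratio scaling, library size alone, no filter, a stricter filter, DESeq2 1.42.0, limma-voom 3.58.1, only the groups compared, the replicate number as a block, the depth class as a term, and each library left out.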

Additional observations from a re-analysis of the deposited data

How the results depend on the processing

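The number of the 7 adhesion genes called at 8 kPa against 1 kPa was 1, and 3 with no filter on low counts (L1CAM and NRCAM were added), 0 with only the groups compared and 0 with a term for depth class. It ran from 0 to 4 when 1 library was left out, with 4 (NCAM1, L1CAM, CNTN1 and NRCAM) without 8 kPa replicate 4. At 30 kPa against 1 kPa the number was 1, 0 with the depth term and 0 to 1 with a library left out, and at 30 against 8 kPa and at 8 kPa against the mean of the others it was 0 in every fit run. Calls among all genes at 8 kPa against 1 kPa were 2472, 1068 with only the groups compared, 0 with the depth term (unadjusted p under 0.05 for 4299) and 534 to 3563 with a library left out. At 30 kPa against 1 kPa they were 437, 263 with library size alone, 875 with no filter, 1068 with DESeq2, 974 with the replicate block, 0 with the depth term (unadjusted p under 0.05 for 1763) and 50 to 676 with a library left out. At 30 kPa against 8 kPa they were 0, 330 with no filter, 430 with DESeq2, 61 with only the groups compared, 40 with the replicate block and 0 to 1026 with a library left out. At 8 kPa against the mean of 1 and 30 kPa they were 1272, 2296 with DESeq2, 2096 with the replicate block and 0 to 2870 with a library left out. At 8 kPa against 1 kPa the calls were 771 without 8 kPa replicate 1 and 534 without 8 kPa replicate 3, the closest pair of libraries. The cause of these shifts was not tested. The sign of 4 values near 0 turned: ALCAM at 8 kPa against 1 kPa was 0.0190 with library size alone, 0.0110 with no filter and 0.0125 with the depth term, and -0.0560 to 0.0366 with a library left out; THY1 in that comparison was 0.00430 with library size alone and -0.159 to 0.0766 with a library left out; at 30 kPa against 8 kPa, with a library left out, NCAM1 ran from -0.0462 to 0.0822 and NFASC from -0.0650 to 0.0274. Replicate numbers were not treated as pairing the libraries, because the labels do not say that a shared number pairs them. Of 12 pairs with the same number 6 correlated above 0.1 (range -0.134 to 0.369). All 3 pairs of replicate 2 did (0.179 to 0.369), and 6 of the 12 libraries correlated best with their own number. Pairs with different numbers were not set beside these, so whether the numbers pair the libraries was not tested. The replicate block changed no call of an adhesion gene. It called 2 sheddase or polysialylation genes at 8 kPa against 1 kPa, against 0 without it, and 3273 of all genes there, against 2472. Depth limits CHL1 and the comparisons of both 30 and 8 kPa with 1 kPa, and the depth term rests on 8 kPa replicate 1.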
